A study of Homo sapiens with 22 samples.

Results

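The genes described here are 37 genes that are normally on in the cleavage-stage human embryo or are known targets of the transcription factor DUX4, followed by RNA sequencing in HEK293 cells that carried dCas9 fusions with and without the acetyltransferase p300. The list was selected on measured rises over WT cells, which carried no fusion, among which RFPL4A and ALPG were some of the largest, and its rows were found by symbol. Values against WT are therefore given below as a description. All 37 have a row among the 48162 gene rows counted, but only 10 had enough reads to pass the filter on low counts, 27 were too low, and 6 of those 27 had no read in any library. The 10 are RFPL4A, RFPL4B, RFPL2, DUXA, TRIM43, TRIM43B, KHDC1, CCNA1, SLC34A2 and ALPG. A gene could pass because it was high in 1 group alone, so the 10 do not stand for the whole list. RFPL4B, DUXA, TRIM43 and TRIM43B passed through VPRP libraries alone, DUXA and TRIM43B through those with the non-target guide alone. They had to be higher there, so their differences between VPRP and the other groups are given as read ratios, with no test.

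HEK293 is an established line from human embryonic kidney, and dCas9 is a form of Cas9 that a guide RNA leads to its DNA site and that no longer cuts there. There were 6 groups with 2 biological replicates each, per the series' design text. WT cells carried a guide but no fusion; the labels used here do not name that guide. Fusions were paired with sgHBB, a guide to the beta-globin gene: dCas9-VPR (a transcription activator), dCas9-p300, and dCas9-VPRP, which joins VPR to p300. A further fusion, dCas9-p300 (D1399Y), carries a substitution that impairs p300's catalysis and was also used with sgHBB. dCas9-VPRP was in addition used with a non-target guide. Cells were kept in dox for 48 hours and sorted before RNA was taken, on GFP and BFP for the fusions and on BFP alone for WT. Whether each line was a single clone is not stated in the labels used here. Below, the groups are WT, VPR, p300 D1399Y, p300, VPRP sgHBB and VPRP non-target.

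DUX4 is a homeobox transcription factor that is switched on briefly when the embryo's own genome starts to be read, and its gene lies in the D4Z4 repeats, which are held silent in most other cells. It turns on a set of germline and embryonic genes, many of them in families of near-identical copies, and its activation domain is known to bind p300 and its relative CBP. When DUX4 escapes silencing in muscle it causes facioscapulohumeral muscular dystrophy, and several of the genes listed here are widely used as its readout. DUX4 itself was not analysed here.

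The regulatory sequence of the gene with the highest counts is shown first, beside that of its near-identical neighbour, because reads of such copies can be hard to assign, and because these windows hold the letters of the DUX4 motif. RefSeq promoter windows on GRCh38.p14, from 250 bases before to 50 after each gene's start, were matched for 29 of the 37 genes. The windows are chr19:55758847-55759146 for RFPL4A and chr19:55768868-55769167 for its copy RFPL4AL1, both on the + strand. Capitals mark a match to the DUX4 motif, searched with its variable positions open to any base and here found on the opposite strand. In RFPL4A the match begins at position -69 from the start.
RFPL4A: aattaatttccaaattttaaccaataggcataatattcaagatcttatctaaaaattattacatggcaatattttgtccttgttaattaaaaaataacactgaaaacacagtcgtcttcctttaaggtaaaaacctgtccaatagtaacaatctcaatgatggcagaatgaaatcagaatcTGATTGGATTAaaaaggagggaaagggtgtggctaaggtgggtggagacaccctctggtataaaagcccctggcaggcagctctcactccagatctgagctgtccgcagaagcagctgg
RFPL4AL1: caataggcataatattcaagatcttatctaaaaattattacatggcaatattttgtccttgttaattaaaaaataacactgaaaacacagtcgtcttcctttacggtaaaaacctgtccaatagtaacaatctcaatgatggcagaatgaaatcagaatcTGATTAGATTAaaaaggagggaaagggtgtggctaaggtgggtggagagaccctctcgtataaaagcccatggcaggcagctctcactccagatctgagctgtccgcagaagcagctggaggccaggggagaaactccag

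An alignment of these windows had 274 identical bases, 5 mismatches and 42 gap bases, and the RefSeq starts differ in place. A stricter form of the motif, with every base fixed as in the capitals of RFPL4AL1, is a case of the open one and was found in 10 of 35116 promoter windows in all (0.0285%) and in 0 of the 29 listed genes. The open motif was found on either strand in 7 of the 29 (24.1%) and in 312 of the 35116 windows (0.888%). The 7 are RFPL4A, TRIM48, TRIM49B, TRIM51, MBD3L2, MBD3L3 and MBD3L5, several of which are copies of each other. A match is a run of letters and was not tested as a binding site. The matches of TRIM48 (chr11:55261989-55262039, + strand), TRIM49B (chr11:49028654-49028704, + strand), TRIM51 (chr11:55883058-55883108, + strand) and MBD3L2 (chr19:7049234-7049284, + strand) are shown because, unlike RFPL4A, these genes had few or no reads.
TRIM48: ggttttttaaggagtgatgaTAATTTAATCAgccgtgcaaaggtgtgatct
TRIM49B: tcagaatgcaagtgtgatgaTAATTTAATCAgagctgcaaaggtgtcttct
TRIM51: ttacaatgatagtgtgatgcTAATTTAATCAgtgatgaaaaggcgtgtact
MBD3L2: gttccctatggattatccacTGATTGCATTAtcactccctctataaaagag

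The sequence TATAAA was found on either strand in 12 of the 29 windows (41.4%) and in 11.5% of all windows. The listed genes' windows had a median of 5 CpG and 43.3% GC, against 14 CpG and 58.7% GC over all windows. They were not alike in this. RFPL4A had 2 CpG in its window, DUXA 6 and RFPL4B 8, whereas RFPL2 had 19, KHDC1 25, CCNA1 35 and SLC34A2 38. The SLC34A2 window (chr4:25655601-25655900, + strand) is shown as the other end of that range. It holds neither the open DUX4 motif nor TATAAA, so no letters are in capitals.
SLC34A2: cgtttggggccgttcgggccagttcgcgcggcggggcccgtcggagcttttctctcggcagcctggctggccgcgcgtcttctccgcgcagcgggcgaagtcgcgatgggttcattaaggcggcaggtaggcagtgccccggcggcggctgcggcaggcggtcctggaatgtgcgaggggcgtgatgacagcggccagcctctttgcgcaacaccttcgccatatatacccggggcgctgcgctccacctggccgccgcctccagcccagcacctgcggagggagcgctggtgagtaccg

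Total counts ran from 14894558 to 17479523 per library, so 1 read was worth about 0.0552 to 0.0692 CPM, the read count scaled to library size. In all, 16694 rows passed the filter on low counts. EP300, the p300 gene, whose reads can come from the cell and from the fusion alike, averaged 107 CPM in WT, 98.7 with VPR, 195 with p300 D1399Y, 1124 with p300, 375 with VPRP sgHBB and 1172 with VPRP non-target. MAGEA10, a cancer-testis antigen, was at 9.46, 25.9 and 32.1 CPM in WT, VPR and VPRP non-target, and at 0.0692, 0 and 0.213 CPM in p300 D1399Y, p300 and VPRP sgHBB, so the groups also fall into 2 sets that do not follow the fusions. Of 5 HEK293 markers listed, 3 were matched to a row. NEFM and PAX2 had reads in every library, while PAX8 had 0 reads in both WT libraries and 0 to 6 in each of the others. The summed HEK293 list ran from 52.4 to 57.5 CPM with p300 and from 126 to 137 CPM in WT. Most of that sum was NEFM, at 49.4 CPM with p300 and 124 CPM in WT. In RNA of sorted cells, fewer cells with a gene on and less RNA per cell cannot be told apart. Intervals and floors below cover counting error only.

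**Figure D1:**
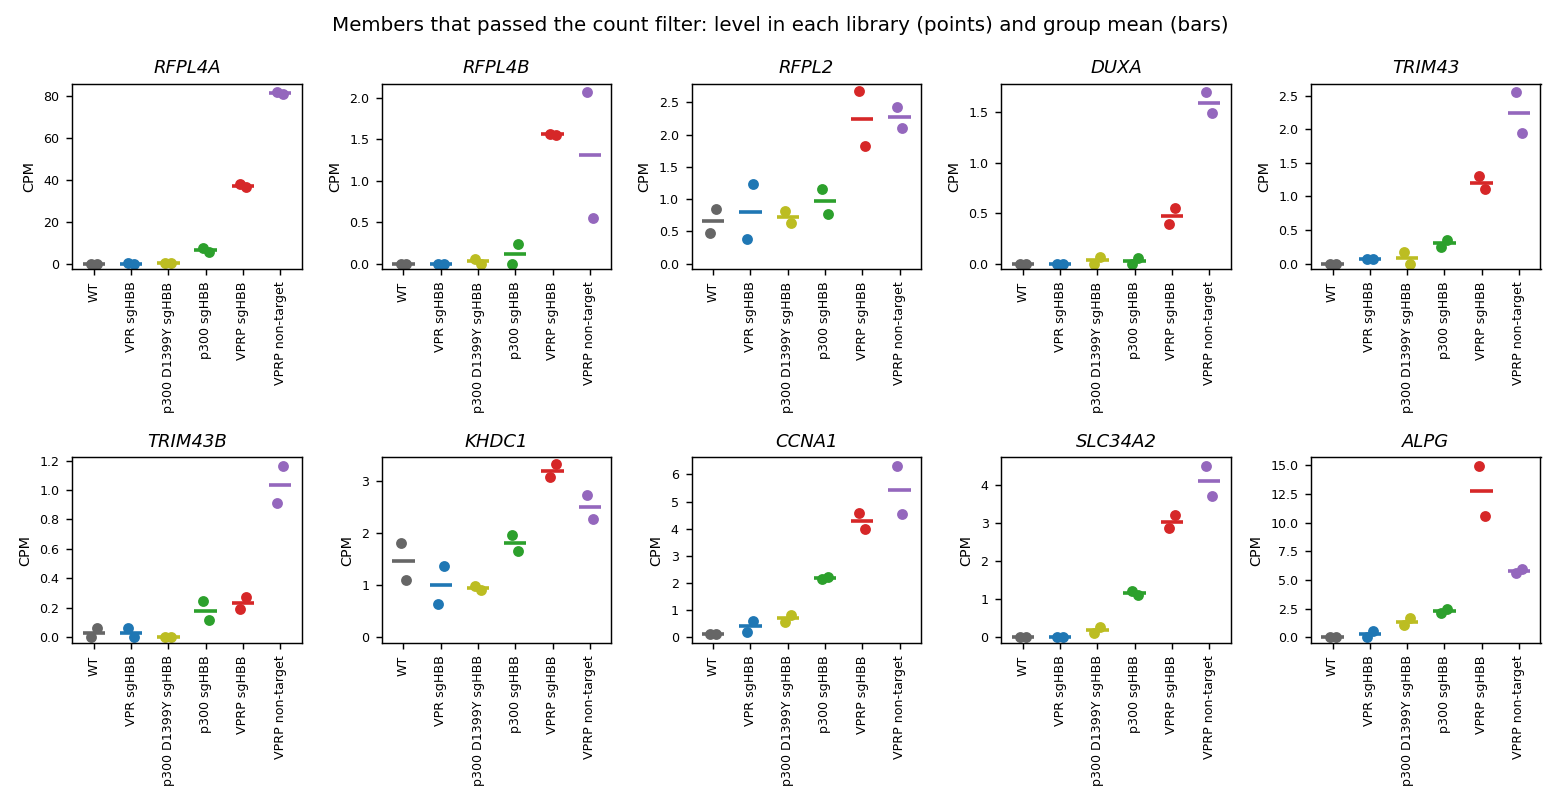
Levels in CPM of the 10 listed genes that passed the filter, each on its own linear scale, with a point for each library, a bar for each group mean and a colour for each group. RFPL4A is near 0 in WT, VPR and p300 D1399Y and reaches 81.6 CPM with VPRP non-target, and ALPG is the gene whose highest libraries are those of VPRP sgHBB.

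The RFPL genes encode RING-finger and SPRY-domain proteins of the RET finger protein-like family, and RFPL4A is an oocyte and early-embryo member that is a known DUX4 target. RFPL4A (ENSG00000223638) was at 0 and 0 CPM in WT, 0.0633 and 0 with VPR, 0.116 and 0.0692 with p300 D1399Y, 7.65 and 5.71 with p300, 37.6 and 36.5 with VPRP sgHBB, and 81.6 and 80.8 CPM with VPRP non-target. The libraries of p300 and of both VPRP groups lay above all libraries of WT, VPR and p300 D1399Y, and p300, VPRP sgHBB and VPRP non-target did not overlap one another. Summed reads of 222 for p300, 1238 for VPRP sgHBB and 2802 for VPRP non-target make RFPL4A at least 67.4-fold, at least 374-fold and at least 821-fold higher than in WT, which had no read. Because this gene was singled out for its rise, the ratios between fusions are likewise a description. The ratio of p300 to p300 D1399Y (222 against 3 reads) was 70.5 (95% interval 23.8 to 345). VPRP sgHBB was 5.56 times p300 (4.81 to 6.44), and VPRP non-target was 12.2 times p300 (10.6 to 14.0). VPRP sgHBB was at 0.456 of VPRP non-target (0.426 to 0.488), so RFPL4A was higher with the guide that has no target.

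Beside these values, EP300 was lower in VPRP sgHBB than with p300, at a ratio of RFPL4A of 5.56, and VPRP non-target and p300 differed by a ratio of 1.04 in EP300 and 12.2 in RFPL4A. In other comparisons both genes went the same way. EP300 averaged 195 CPM with p300 D1399Y and 1124 CPM with p300, beside the RFPL4A ratio of 70.5. It averaged 375 CPM in VPRP sgHBB and 1172 CPM in VPRP non-target, where RFPL4A with sgHBB was at 0.456 of its non-target level. WT, VPR and VPRP non-target had 9.46 to 32.1 CPM of MAGEA10 and the other 3 groups 0.213 CPM or less. The part of either in the RFPL4A levels was not tested.

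The other RFPL genes were far lower. RFPL4B (ENSG00000251258), a relative of RFPL4A on another chromosome, was at 0 and 0 CPM in WT and VPR alike, 0.0578 and 0 with p300 D1399Y, 0 and 0.236 with p300, 1.57 and 1.55 with VPRP sgHBB, and 2.07 and 0.554 CPM with VPRP non-target. Only the VPRP libraries stood clear of the rest, and the 2 VPRP non-target libraries differed by more than those of VPRP sgHBB. The ratio to p300, from 52 and 44 reads against 4, was 13.0 for VPRP sgHBB (95% interval 4.77 to 49.3) and 10.6 for VPRP non-target (3.87 to 40.7). By edgeR's quasi-likelihood test RFPL4B did not differ past the threshold between p300 and p300 D1399Y (4 reads against 1, adjusted p = 0.468) or between the VPRP guides (log2 0.26, SE 0.574, adjusted p = 0.776).

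RFPL2 (ENSG00000128253), a member of the primate RFPL1 to RFPL3 cluster, already had reads in every library: 0.470 and 0.841 CPM in WT, 0.380 and 1.23 with VPR, 0.809 and 0.622 with p300 D1399Y, 1.16 and 0.766 with p300, 2.68 and 1.82 with VPRP sgHBB, and 2.43 and 2.11 CPM with VPRP non-target. WT, VPR, p300 D1399Y and p300 overlapped, and both VPRP groups lay above them. RFPL2 was higher in VPRP non-target than with p300 (log2 1.23, SE 0.450, edgeR adjusted p = 0.0244) and in VPRP sgHBB than with p300 (log2 1.21, SE 0.453, adjusted p = 0.0429). These calls are fragile: the first was lost without p300 replicate 2 (adjusted p = 0.189), VPRP non-target replicate 1 (0.124) or replicate 2 (0.0592), and the second without VPRP sgHBB replicate 1 (0.276), p300 replicate 1 (0.0733) or replicate 2 (0.268), with DESeq2 (0.0789), with the copies summed (0.0558) and with a replicate block (0.0538). p300 and p300 D1399Y did not differ past the threshold (log2 0.41, SE 0.532, adjusted p = 0.601). RFPL3 had 0 to 2 reads per library, and RFPL1 had none.

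The PRD-like homeobox genes LEUTX, DUXA, TPRX1, ARGFX and DPRX encode transcription factors that are expressed around genome activation. DUXA (ENSG00000258873) was the only one of the 5 to pass the filter, at 0 and 0 CPM in WT and VPR, 0 and 0.0692 with p300 D1399Y, 0 and 0.0589 with p300, 0.391 and 0.552 with VPRP sgHBB, and 1.70 and 1.496 CPM with VPRP non-target. The 2 VPRP groups lay above the rest and did not overlap each other. Against p300, which had 1 read, the ratio was 53.1 for VPRP non-target (95% interval 9.14 to 2135) and 15.9 for VPRP sgHBB (2.48 to 669). VPRP sgHBB was at 0.300 of VPRP non-target (0.161 to 0.532), from 16 reads against 55. LEUTX had 2 and 1 reads in the VPRP non-target libraries and none elsewhere. TPRX1 had 3 reads in VPRP sgHBB replicate 2 and 4 in VPRP non-target replicate 2, DPRX had 0 to 3 per library, and ARGFX had none.

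ZSCAN4, a zinc-finger gene that is a hallmark of the cleavage stage and a direct DUX4 target, had 2 and 4 reads in the VPRP non-target libraries, 1 read in p300 replicate 1, 1 in p300 D1399Y replicate 1 and none in the other 8 libraries. Both VPRP non-target libraries were above every other library, on too few reads to be tested. The imprinted-cluster zinc-finger gene ZIM3 had 1 read in all.

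TRIM43 and TRIM43B are near-identical TRIM-family genes, and the TRIM49 family sits in a segmentally duplicated region. TRIM43 (ENSG00000144015) was at 0 and 0 CPM in WT, 0.0633 and 0.0684 with VPR, 0.173 and 0 with p300 D1399Y, 0.245 and 0.353 with p300, 1.31 and 1.11 with VPRP sgHBB, and 2.55 and 1.94 CPM with VPRP non-target. Every library of p300 was above those of WT, VPR and p300 D1399Y, and the 2 VPRP groups were above p300. The ratio to p300 was 7.43 for VPRP non-target (95% interval 3.83 to 16.1) and 3.99 for VPRP sgHBB (1.96 to 8.94). Between p300 and p300 D1399Y it did not pass the test (10 reads against 3, ratio 3.18, 95% interval 0.818 to 18.0, adjusted p = 0.233).

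TRIM43B (ENSG00000144010) was at 0 and 0.0647 CPM in WT, 0.0633 and 0 with VPR, 0 and 0 with p300 D1399Y, 0.245 and 0.118 with p300, 0.196 and 0.276 with VPRP sgHBB, and 0.911 and 1.16 CPM with VPRP non-target. Here the VPRP sgHBB libraries overlapped those of p300 and lay below VPRP non-target, at a ratio of 0.229 (95% interval 0.0921 to 0.502). The ratio to p300 was 5.79 for VPRP non-target (2.42 to 16.8) and 1.33 for VPRP sgHBB (0.404 to 4.65). Of the reads given to either copy, TRIM43B took 28.3% over all libraries. With both copies summed the difference between the VPRP guides was log2 -1.18. It is given with no test, because TRIM43B passed the filter through VPRP non-target alone.

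TRIM48 (ENSG00000150244) did not pass the filter but reached a mean of 0.616 CPM with VPRP non-target. Its reads were 13 and 8 there, 3 and 2 with VPRP sgHBB, 0 and 1 with p300, and 0 in all 6 libraries of WT, VPR and p300 D1399Y. TRIM49 had 2 and 14 reads in VPRP non-target, so a single library carried most of them, and 0 to 5 in each of the others. TRIM49B and TRIM49C had 0 to 3 reads per library, and TRIM51 had 1 read in all, in p300 replicate 2. These are copies of each other, and the split of reads among them is uncertain.

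The other genes that passed are an unlike set. CCNA1, cyclin A1, is the germline cyclin, and SLC34A2 is a sodium-dependent phosphate transporter of lung and other epithelia; both are known to rise when DUX4 is expressed. CCNA1 (ENSG00000133101) was at 0.134 and 0.129 CPM in WT, 0.190 and 0.616 with VPR, 0.578 and 0.830 with p300 D1399Y, 2.14 and 2.24 with p300, 4.57 and 3.98 with VPRP sgHBB, and 6.32 and 4.54 CPM with VPRP non-target. SLC34A2 (ENSG00000157765) was at 0 and 0 CPM in WT and VPR alike, 0.116 and 0.277 with p300 D1399Y, 1.22 and 1.12 with p300, 2.87 and 3.20 with VPRP sgHBB, and 4.495 and 3.71 CPM with VPRP non-target. Both genes had the same order of groups, p300 D1399Y below p300 below the VPRP groups. For CCNA1 the libraries of the VPRP guides overlapped, and for SLC34A2 they did not.

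CCNA1 and SLC34A2 were also the tested genes of the list that were higher with p300 than with p300 D1399Y. SLC34A2 was higher by log2 2.58 (SE 0.613, edgeR adjusted p = 0.00159), from 6 reads to 39, and CCNA1 by log2 1.65 (SE 0.414, adjusted p = 0.00251), from 22 reads to 73. Both kept their call when any 1 of the 4 libraries was left out. EP300 reads differed 5.78-fold between these groups, and its part in the result was not tested. Against p300, VPRP non-target had more SLC34A2 (log2 1.80, SE 0.379, adjusted p = 0.000217) and more CCNA1 (log2 1.30, SE 0.309, adjusted p = 0.000745), at an EP300 ratio of 1.04. VPRP sgHBB had more SLC34A2 (log2 1.37, SE 0.389, adjusted p = 0.00763) and CCNA1 (log2 0.96, SE 0.316, adjusted p = 0.0209) than p300. The SLC34A2 call was lost without VPRP sgHBB replicate 2 (edgeR adjusted p = 0.06) or p300 replicate 2 (0.0694), and the CCNA1 call without VPRP sgHBB replicate 1 (0.117), p300 replicate 1 (0.105) or p300 replicate 2 (0.0853). The VPRP guides did not differ past the threshold in either gene (adjusted p = 0.372 and 0.398).

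KHDC1 (ENSG00000135314) encodes a KH-domain protein of the oocyte and embryo, and it had reads in all libraries: 1.82 and 1.10 CPM in WT, 0.633 and 1.37 with VPR, 0.983 and 0.899 with p300 D1399Y, 1.96 and 1.65 with p300, 3.07 and 3.32 with VPRP sgHBB, and 2.73 and 2.27 CPM with VPRP non-target. p300 overlapped WT, and the VPRP libraries were the highest. It did not pass the test for p300 against p300 D1399Y (log2 0.93, SE 0.422, edgeR adjusted p = 0.0934), VPRP sgHBB against p300 (log2 0.82, SE 0.357, adjusted p = 0.0831) or VPRP non-target against p300 (log2 0.47, SE 0.365, adjusted p = 0.303). Fitted on the 2 groups alone, VPRP sgHBB against p300 was called (adjusted p = 0.0429). Its relative KHDC1L, a DUX4 target in muscle cells, had 1 read in all, in WT.

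ALPG (ENSG00000163286), a germ-cell alkaline phosphatase of the placental type, was at 0 and 0 CPM in WT, 0.0633 and 0.547 with VPR, 1.10 and 1.66 with p300 D1399Y, 2.14 and 2.47 with p300, 14.9 and 10.6 with VPRP sgHBB, and 5.59 and 5.98 CPM with VPRP non-target. The groups did not overlap one another. ALPG differed from the pattern of RFPL4A in 2 ways: p300 D1399Y already had reads, and VPRP sgHBB was above VPRP non-target. The ratio of VPRP sgHBB to VPRP non-target was 2.17 (95% interval 1.83 to 2.58), and that of p300 to p300 D1399Y was 1.71 (1.16 to 2.54), given as a description because ALPG was singled out for its rise. Against WT, which had no read, ALPG was at least 127-fold higher with VPRP sgHBB, at least 58.6-fold with VPRP non-target, at least 23.4-fold with p300, at least 13.7-fold with p300 D1399Y and at least 2.99-fold with VPR. Its near-identical neighbour ALPP, the placental alkaline phosphatase, took 15 reads against 750 for ALPG (1.96% of both).

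RFPL4AL1 likewise took 125 reads against 4266 for RFPL4A, 2.85% of both. The share was 2.29% in VPRP sgHBB, 3.25% in VPRP non-target and 1 read of 223 with p300. How the authors' counting treated reads that fit both copies equally is not given in the sources used here.

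The rest of the list was close to 0. Summed over the 27 genes that did not pass the filter, the reads were 2 and 2 in WT, 2 and 2 with VPR, 7 and 6 with p300 D1399Y, 4 and 8 with p300, 9 and 16 with VPRP sgHBB, and 33 and 46 with VPRP non-target. VPRP non-target lay above all other groups, while p300 overlapped p300 D1399Y. PRAMEF1, PRAMEF2, PRAMEF4, PRAMEF12 and PRAMEF17, of a large copy family expressed in germ cells and tumours, had 0 to 3 reads per library. MBD3L2, MBD3L3 and MBD3L5, relatives of the methyl-CpG-binding protein MBD3 and among the usual DUX4 readouts, had no read in any library, like DPPA5, a gene of pluripotent cells. DPPA3, KDM4E and HNRNPCL1 had 0 to 3 reads per library. Of the 37 genes, 5 and 6 had a read in the WT libraries, 9 and 7 with VPR, and 13 and 9 with p300 D1399Y. The numbers were 12 and 17 with p300, 13 and 16 with VPRP sgHBB, and 21 and 23 with VPRP non-target. Here p300 D1399Y overlapped p300, and its higher library equalled the lower one of VPRP sgHBB. Those with reads in both libraries numbered 3 in WT, 6 with VPR, 6 with p300 D1399Y, 9 with p300, 13 with VPRP sgHBB and 18 with VPRP non-target. Over all rows, genes with reads in both libraries numbered 18458 in WT, 18797 with VPR, 19248 with p300 D1399Y, 19772 with p300, 20488 with VPRP sgHBB and 21948 with VPRP non-target.

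**Figure D2:**
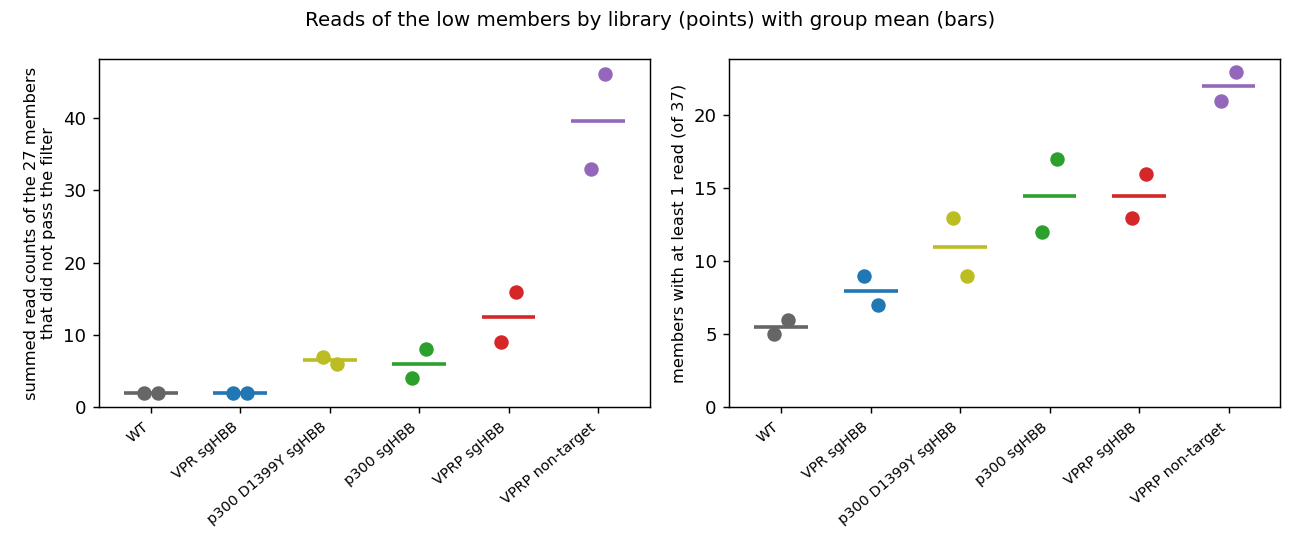
Left, summed read counts per library of the 27 listed genes that did not pass the filter; right, how many of the 37 had at least 1 read; points are libraries and bars group means. VPRP non-target, with 33 and 46 summed reads, stands above every other group on the left.

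**Figure D3:**
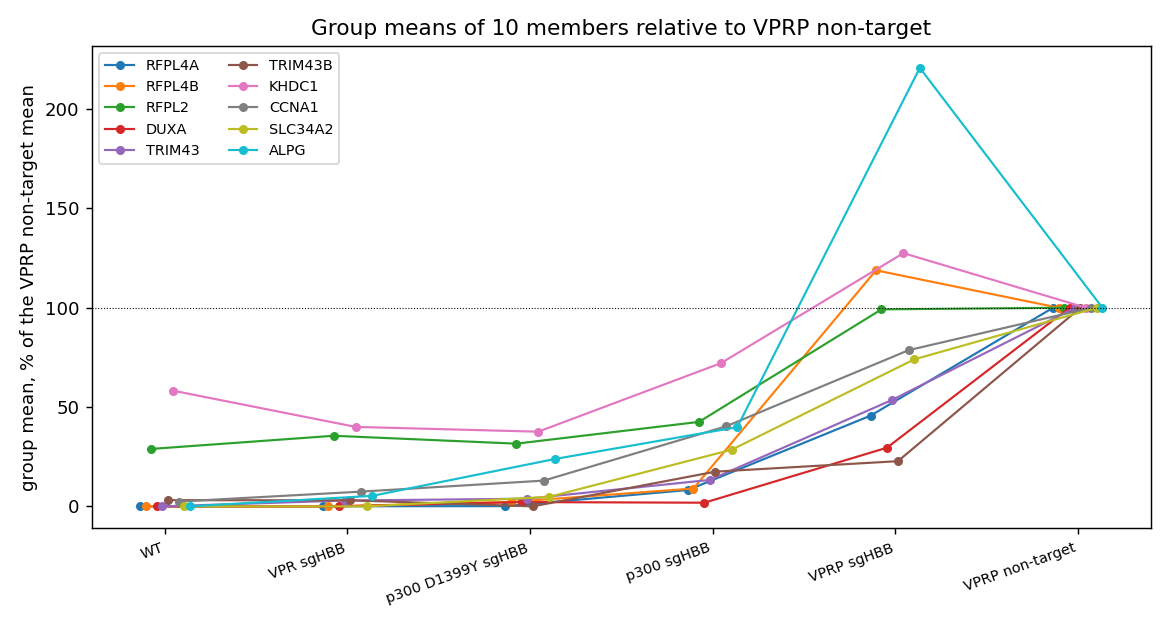
Group mean CPM as a percentage of the VPRP non-target mean for the 10 listed genes that passed the filter; lines only join the points of a gene, and no error is drawn. ALPG, RFPL4B and KHDC1 are the genes whose VPRP sgHBB value is above 100%, at 221%, 119% and 127%.

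Set on a common scale, the genes differed in how much of the VPRP non-target level p300 reached. The p300 mean was 8.23% of the VPRP non-target mean for RFPL4A, 1.84% for DUXA, 8.99% for RFPL4B, 13.3% for TRIM43 and 17.5% for TRIM43B, but 28.5% for SLC34A2, 39.9% for ALPG, 40.3% for CCNA1, 42.5% for RFPL2 and 72.1% for KHDC1. The same share for p300 D1399Y was 0.114% for RFPL4A, 0% for TRIM43B, 2.16% for DUXA, 2.21% for RFPL4B, 3.86% for TRIM43, 4.78% for SLC34A2, 13.0% for CCNA1, 23.8% for ALPG, 31.6% for RFPL2 and 37.6% for KHDC1. Low counts limit the precision of the shares of DUXA, RFPL4B, TRIM43 and TRIM43B.

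**Figure D4:**
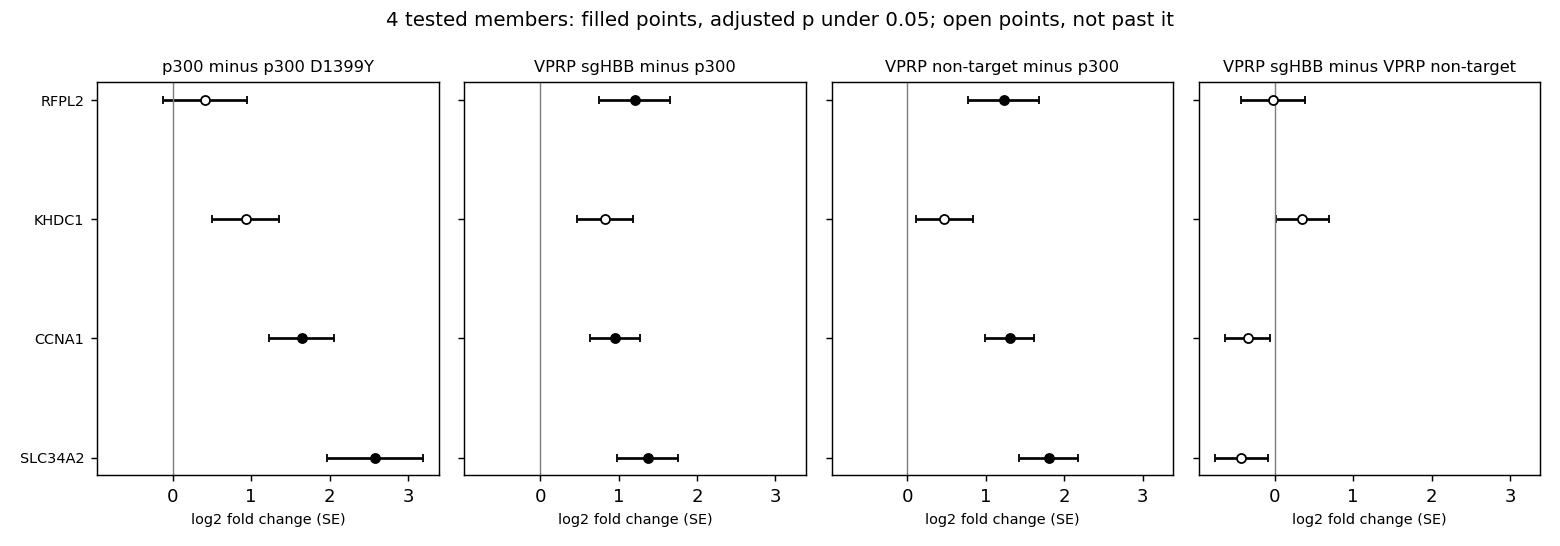
log2 fold change with its SE from the edgeR fit for RFPL2, KHDC1, CCNA1 and SLC34A2, in p300 against p300 D1399Y, in each VPRP group against p300, and in VPRP sgHBB against VPRP non-target; filled points passed adjusted p 0.05 and open points did not. SLC34A2 and CCNA1 are the filled points in the first panel, and the last panel has none.

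Counts of called genes among the 10 of 37 that passed the filter are set beside the share of all 16694 tested genes called in the same comparison, higher and lower. RFPL4A and ALPG, chosen for their rise, and the 4 genes that passed through VPRP alone are included, so nothing is read from the counts that involve VPRP. In p300 against p300 D1399Y, 3 of the 10 were higher and 0 lower (15.4% and 15% of all genes), the third being RFPL4A. In VPRP non-target against p300, 9 of the 10 were higher and 0 lower (23.6% and 23.2% of all genes), with KHDC1 the one not called. In VPRP sgHBB against p300, 8 were higher and 0 lower (14.3% and 13.7% of all genes), but the count was 4 or 5 with any of the 4 libraries left out and 5 with DESeq2. In VPRP sgHBB against VPRP non-target, 1 was higher and 3 lower (14.9% and 14.4% of all genes), and 2 were called in all with any of the 4 libraries left out: ALPG and RFPL4A. These comparisons share libraries and are not independent.

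Against VPR, VPRP sgHBB had 9 of the 10 higher and 0 lower (24.7% and 25.1% of all genes), and VPRP non-target had 10 higher and 0 lower (27% and 28.2% of all genes). Only 1 of the 10 was called between VPR and WT, and rises over WT chose the list. These comparisons therefore come close to those that chose it, so the values are a description and no p is given. With VPR at 0 reads, SLC34A2 was at least 30.9-fold higher with VPRP sgHBB and at least 41.4-fold with VPRP non-target. RFPL4B was at least 15.8-fold and at least 12.9-fold higher, and DUXA at least 4.85-fold and at least 16.2-fold. CCNA1 was higher by log2 3.40 (SE 0.428) and 3.75 (SE 0.417). KHDC1 was higher by log2 1.68 (SE 0.396) with VPRP sgHBB and 1.33 (SE 0.405) with VPRP non-target, the latter 0.855 without VPR replicate 1. RFPL2 was higher with VPRP sgHBB (log2 1.48, SE 0.474) and with VPRP non-target (count ratio 2.86). Without VPR replicate 1 the log2 was 0.853 with VPRP sgHBB and 0.865 with VPRP non-target. Without VPRP sgHBB replicate 1 the first was 1.18. TRIM43B had 8 reads with VPRP sgHBB against 1 with VPR.

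Against WT the counts use the values that chose the list, and nothing is read from them. With VPR, 1 was higher and 0 lower (13.8% and 11.5% of all genes), with p300 D1399Y 3 and 0 (15.7% and 14.5%), with p300 5 and 0 (24.5% and 21.6%), with VPRP sgHBB 9 and 0 (31.1% and 28%), and with VPRP non-target 9 and 0 (31.2% and 28.5%). The gene called with VPR was ALPG, and it was not called without VPR replicate 2 or either WT library.

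Other DUX4 targets and neighbours of its locus were looked up as the wider pathway. Of 40 further DUX4 targets listed, 32 had a row and 6 were tested, and in VPRP non-target against WT 4 were higher and 0 lower (31.2% and 28.5% of all genes), with a median log2 of 3.78 against 0.04 over all genes. RFPL4AL1, with 0 or 1 read in each library outside VPRP, passed the filter through VPRP libraries alone. USP17L2 reached the filter's level in both libraries of a group only with VPRP non-target. Nothing is read from the count or the median for this reason. RFPL4AL1 was at least 27.5-fold higher, USP17L2, a deubiquitinase of a copy family, had a count ratio of 45.7 (95% lower bound 7.85), SNAI1, a regulator of epithelial-mesenchymal transition whose place in this list is less certain, was higher by log2 5.83 and ZNF296 by 2.34. SNAI1 was also higher with p300 than with p300 D1399Y (log2 2.08, SE 0.241, edgeR adjusted p = 3.98e-08), while ZNF296 was not called there (log2 0.23, SE 0.140, adjusted p = 0.23).

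FRG2 and FRG2B lie beside D4Z4 repeats, and FRG2C is a copy elsewhere, so reads may be shared among them. FRG2C had 1 and 1 reads in WT, 1 and 1 with VPR, 0 and 1 with p300 D1399Y, 61 and 39 with p300, 690 and 628 with VPRP sgHBB, and 1378 and 1531 with VPRP non-target. FRG2B had 72 and 53 reads with p300 and 898 and 1120 with VPRP non-target, and FRG2 29 and 31 against 305 and 301. FRG1, a further gene of the D4Z4 region with pseudogene copies, had another order: it was higher with p300 than in WT (log2 1.60) but lower with VPRP non-target than with p300 (log2 -1.26, SE 0.127, adjusted p = 6.1e-10). It averaged 10.8 CPM in WT, 14.1 with VPR, 24.1 with p300 D1399Y, 32.8 with p300, 26.3 with VPRP sgHBB and 13.7 with VPRP non-target. The groups with more FRG1 were thus those with little MAGEA10, and the part of that split was not tested.

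Among 18 tested genes that are known to hold DUX4 silent or to act with it, 3 were higher and 9 lower in VPRP non-target against WT (31.2% and 28.5% of all genes; median log2 -0.18). SETDB1, a methyltransferase of silent chromatin, was lower by log2 -1.11. LRIF1, which helps to hold the D4Z4 repeat silent, was higher by log2 1.63, and EP300, which includes the fusion's reads, by 3.46. With p300 against p300 D1399Y the same list had 2 higher and 8 lower (15.4% and 15% of all genes).

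Markers of other cell types were checked beside the embryonic genes. Of 6 pluripotent markers 4 had no read in either WT library and 2 had none in either VPRP non-target library, and NANOG had 3 and 2 reads in VPRP non-target. The summed level was 10.1 to 10.6 CPM in WT and 14.4 to 15.2 with VPRP non-target. Most of it was SOX2, which was already on in WT, at a mean of 9.54 CPM there and 13.5 with VPRP non-target. The oocyte markers summed to 5.31 to 6.15 CPM in WT and 7.76 to 10.8 with VPRP non-target, the highest of the groups. Nearly all of that sum was ZP3 and GDF9. ZP3 averaged 4.94 CPM in WT and 5.86 with VPRP non-target, with overlapping libraries, and GDF9 averaged 0.757 and 3.34 CPM. The other oocyte markers, BMP15, ZP2, FIGLA and NOBOX, had 0 to 2 reads per library, so the list did not rise as a set. The 8 trophoblast markers summed to 12.6 to 16.7 CPM in WT and 12.0 to 15.4 with VPRP non-target. CGA, the subunit shared by chorionic gonadotropin and other hormones, had 124 and 89 reads with p300 against 11 and 14 in WT. GATA3, the other of the 2 trophoblast markers tested, went the other way, at 13.6 CPM in WT and 8.58 with p300. The part of all these markers in the results was not tested.

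The genes most like RFPL4A over the 12 libraries, by Pearson correlation of log2(CPM + 0.5) among 15546 genes, were FRG2B (r = 0.998), ACSBG1 (0.997), PRR20G, TENT5C, ELL2, SNX29, PELI1 and FRG2 (0.993). These values describe 12 libraries that fall into 6 groups, and the points of a group share its cells. Of the other listed genes that passed the filter, the likeness was 0.992 for SLC34A2 (rank 13), 0.965 for CCNA1 (rank 226), 0.957 for TRIM43, 0.891 for ALPG, 0.867 for RFPL4B, 0.865 for RFPL2 and TRIM43B, 0.860 for DUXA and 0.853 for KHDC1 (rank 1764). These ranks are among all 16694 rows tested, which include rows without a symbol. TENT5C, a cytoplasmic poly(A) polymerase, was already at 8.16 CPM in WT and reached 36.0 CPM with p300 and 101 CPM with VPRP non-target, so a like pattern was also seen in genes that are on in WT.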

How the data were processed

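RNA sequencing of 12 libraries was analysed; 10 samples of H3K27ac ChIP-seq were not analysed here. The deposited table holds raw read counts per gene, whole numbers with no normalization. Per the submitters' processing notes, STAR 2.5, HTSeq 0.6.1, DESeq2 1.24.0, BWA, deepTools and the build hg19 were used, with no role given; the sources used here give neither annotation nor strand setting, so reads of copies and overlapping genes are uncertain. Symbols were matched for 33626 of 48162 IDs.

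The main test was edgeR 4.0.16 under R 4.3.3, with limma 3.58.1 loaded: filterByExpr (minimum count 10, minimum total 15), TMM factors, a quasi-likelihood fit of 6 group means to all 12 libraries, and 11 comparisons with Benjamini-Hochberg adjustment over the 16694 genes at 0.05. p-values measure the spread between the 2 libraries of a group, pooled over groups. That spread was unequal. Among well-counted genes, variance averaged 13.7 times that of counting alone in VPR and 8.23 times in VPRP sgHBB. It averaged 5.19 times in p300 D1399Y, 3.60 in p300, 3.47 in WT and 2.87 in VPRP non-target. Comparisons with VPR or VPRP sgHBB may therefore have p-values that are too small. CPM uses the same factors. Against 0 counts a fold is a lower limit that takes 3 counts for the group; with few counts the ratio of summed counts has its exact 95% binomial interval. The steps were tested on simulated counts with a common spread, with changes placed in VPRP non-target for genes above a set mean level. That run does not cover genes with few or no reads.

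The genes and lists were chosen with earlier results of these data known. Values are given in every library for genes with a group mean of at least 0.5 CPM; from other lists, up to 4 genes with the largest called change in VPRP non-target against WT, the FRG2 family, genes a result turns on, and the 8 most like RFPL4A. RFPL4A and ALPG are in the fit and in the counts of called genes, but no p is given for them, nor for the 4 genes that passed the filter through VPRP libraries alone where VPRP is compared with another group or, for DUXA and TRIM43B, between its guides. For VPRP against VPR no p is given for any listed gene. The result of 1 gene that this rule names is not reported here. NANOG, SOX2, CGA, GATA3, PAX8, TENT5C, the oocyte markers and the neighbouring genes were named after their values were seen. Alternatives were DESeq2 1.42.0, RLE factors, no filter, a filter of 1 CPM in at least 2 libraries, only the 2 groups compared, a replicate block, copies summed, and each library left out. Promoter sequences are from RefSeq (GRCh38.p14). Python 3.11.15 and matplotlib 3.10.9 drew the figures.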

Additional observations from a re-analysis of the deposited data

How the results depend on the processing

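With 2 libraries a group and few reads for most of these genes, depth limits what can be called. No listed gene that was called changed direction under any alternative run. Counts of called genes moved by over 1.5 times in 4 comparisons. For p300 D1399Y against WT the 3 genes became 1 with only the 2 groups compared and 1 to 3 with a library left out, and for VPR against WT the 1 gene became 0 with only the 2 groups compared and 0 to 1 with a library left out; VPR against WT had 1 of 10 tested genes called with edgeR. For VPRP sgHBB against p300 the 8 became 5 with DESeq2 and 4 to 5 with a library left out. For VPRP sgHBB against VPRP non-target the 4 became 2 with DESeq2, 2 with no low-count filter and 2 to 2 with a library left out. Leaving out a library lowers the group size the filter works with, so 11 or 12 listed genes were then tested, and VPRP non-target against WT ran from 10 to 12 against 9. p300 against p300 D1399Y kept a count of 3 under every alternative run. Same-numbered libraries did not deviate together (15 pairs of groups, correlations from -0.23 to 0.18, 3 over 0.1), so the numbers do not pair the samples. With a replicate block, 1 call was lost (RFPL2, VPRP sgHBB against p300, count 7 against 8), and the counts of the other comparisons were 1 (VPR against WT), 3 (p300 D1399Y against WT, and p300 against p300 D1399Y), 4 (VPRP sgHBB against VPRP non-target), 5 (p300 against WT), 9 (both VPRP groups against WT, VPRP sgHBB against VPR, and VPRP non-target against p300) and 10 (VPRP non-target against VPR).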

Other observations

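The 3 genes on each side of a listed gene, in the order of GRCh38.p14, were looked up in VPRP non-target against WT, a choice made after values had been seen. Beside RFPL4A, 3 of the 6 neighbours were tested. RFPL4AL1 was higher, but it passed the filter through VPRP libraries alone and had to be. U2AF2, a splicing factor gene, was lower by log2 -0.41 (SE 0.069, edgeR adjusted p = 4.79e-06), and EPN1 did not pass the threshold (adjusted p = 0.0887). NLRP4 and NLRP11, oocyte-expressed genes of the same stretch, had 16 and 15 summed reads with VPRP non-target against 1 and 4 in WT, too few to be tested. Beside SLC34A2 all 6 neighbours were tested, with 0 higher and 3 lower (ANAPC4, SEL1L3 and RBPJ). Beside CCNA1, SERTM1 was higher by log2 2.56 (SE 0.198, adjusted p = 3.24e-13), while SPART, RFXAP and SMAD9 were lower. Beside ALPG, NPPC, the gene of C-type natriuretic peptide, was higher by log2 1.95 (SE 0.183, adjusted p = 3.49e-11), ECEL1 was higher by 0.57 and DIS3L2 lower by log2 -0.37. Beside DUXA, 2 of 3 tested neighbours were higher and 0 lower, and beside RFPL4B, 2 of 6 were higher and 2 lower. Beside TRIM43, 1 of 4 was higher and 2 lower, and beside TRIM43B, 1 of 5 was higher and 2 lower. The higher one was in each case the other TRIM43 copy, which passed the filter through VPRP libraries alone. Beside KHDC1, 0 of 2 were higher and 1 lower, and beside RFPL2, 0 of 2 were called. Over all genes tested in this comparison, 31.2% were higher and 28.5% lower.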
